A study of Caenorhabditis elegans with 4 samples.

Results

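The genes described here are the histone genes of the nematode Caenorhabditis elegans whose symbols begin with his-. Members were all probes that the platform annotation assigns to a single gene with such a symbol, which gave 68 probes for 55 genes, out of 21632 probes and 14943 singly named genes on the arrays. Of these genes 13 encode histone H2A, 12 H2B, 11 H3, 13 H4, 5 the replacement histone H3.3 and 1, his-24, the linker histone H1.1. A newer gene table lists 72 his genes, and the other 17 had no probe of their own and were not analysed here; 14 of them form 2 groups of neighbours on chromosome V. The samples were 4 RNA preparations (preps 1 to 4) of wild-type (wt) larvae at the L2 stage, each hybridised to its own 2-colour array beside a wild-type mixed reference RNA. The labels give no strain, treatment, age in hours or makeup of the reference, and do not say whether the preps were separate cultures. All 4 preps form 1 group, so L2 against the reference is the only comparison.

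Histones wrap DNA into nucleosomes, each built on an H3-H4 tetramer flanked by H2A-H2B dimers, and H1 binds the DNA between them. Core histone genes are transcribed mainly in S phase, and their messages in animals usually end in a stem-loop in place of a poly(A) tail. In C. elegans most of them lie in clusters, where an H2A gene often neighbours an H2B gene and an H3 gene an H4 gene. Replacement histones such as H3.3 and H2A.Z can enter chromatin outside S phase. In L2 larvae the small germ line and some somatic blast cells divide, whereas adults and embryos, if present in a mixed population, hold a large dividing germ line or rapidly dividing cells.

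Each value is a log2 ratio centred on the array's median. Channel 2 held L2 and channel 1 the reference, but the dyes are not given, so a positive value is taken as probably higher in L2. As a check of this direction, the medians of 3 yolk protein and 29 major sperm protein genes, products of the adult intestine and of sperm, were -5.42 and -3.15 and negative in all 4 preps. A value was present for 21209 to 21386 probes per array. Prep 3 stood apart: across all features its correlation with the other preps was 0.486 to 0.568, against 0.671 to 0.735 among the other preps, and its estimated array weight was 0.468, against 0.860 to 1.59. Results that change without a prep are given with and without it.

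At an adjusted p under 0.05 histone genes were called lower in L2 about as often as all features, and few had mean log2 ratios beyond 1 in size. Over the 55 genes the median of the mean log2 ratios was -0.11, beside 0.014 over all 19941 features tested, and 54 of 55 means lay within 1 of 0 (98.2%, beside 89.1% of all features). Within the tighter bound of 0.5 lay 35 of 55 (63.6%), beside 68.1% of all features. By limma with Benjamini-Hochberg adjustment over all features, 5 histone genes were lower in L2 at an adjusted p under 0.05 and 0 were higher. Over all features 9.87% were called lower and 4.85% higher, so the share of histone genes called lower, 9.09%, was near the background. At an unadjusted p under 0.05 the counts were 17 of 55 lower and 3 of 55 higher, against 18.5% and 13.8% of all features. Of the 52 genes with a value on every array, 20 were below 0 in all 4 preps, beside 22.7% of all features. Above 0 in all 4 were 5 of the 52, beside 20.1%. In both counts the lower share was above that of all features and the higher share below it, which was not tested. In whole-animal RNA, fewer cells of a type and less RNA per cell cannot be told apart.

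For 40 of 55 genes (72.7%, beside 66.9% of all features) the 95% interval of the mean lay wholly between -1 and 1, that is, within a 2-fold difference in either direction, and the interval reached a median of 0.40 to either side of the mean. The interval included 0 for 35 genes (63.6%, beside 67.7% of all features). A further 9 genes lower and 3 higher had adjusted p from 0.05 to 0.10. The share of all features in that range was not computed, so these counts are not read as a trait of the histone genes. The medians over the histone genes were -0.14, -0.30, -0.15 and -0.11 in preps 1 to 4, so that every prep stood slightly below 0. Pooling preps 1 and 2, whose array titles share a month, gave -0.20 and preps 3 and 4 gave -0.086. The number of genes called lower was 0 without prep 1, 0 without prep 2, 3 without prep 3 and 1 without prep 4, where 4.51%, 4.53%, 9.55% and 6.21% of all features were called lower. Without any of these preps 0 histone genes were called higher, where 1.48%, 1.68%, 7.07% and 2.53% of all features were.

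**Figure D1:**
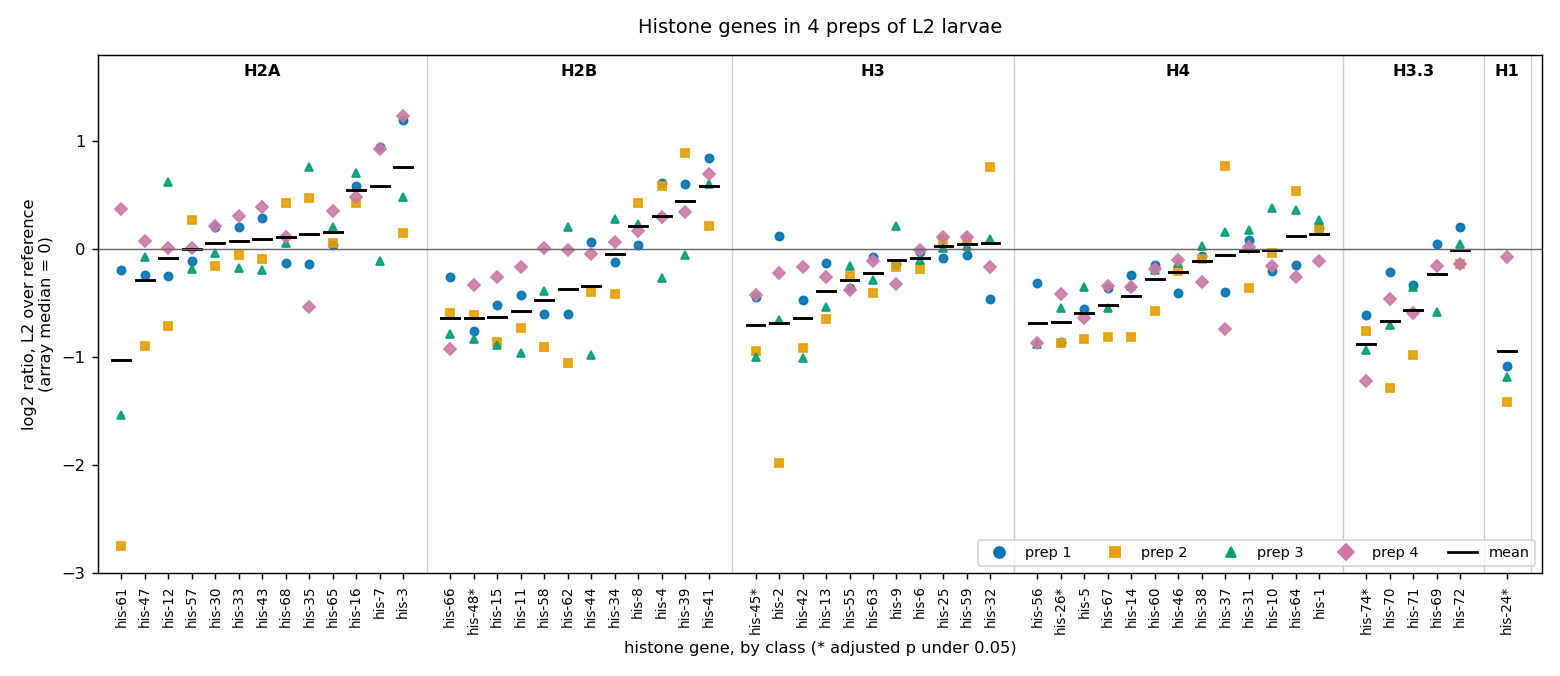
Log2 ratios of L2 over the reference for each of the 55 histone genes, grouped by histone class and ordered by mean; coloured symbols are single preps and black bars the means. Means run from -1.03 (his-61) to 0.76 (his-3), and the 5 genes with an adjusted p under 0.05, marked with an asterisk, are all below 0.

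H2A genes lay closest to the array median, and some stood above it. The median of the 13 means was 0.098, with 0 called in either direction (beside 9.87% lower and 4.85% higher of all features). The highest was his-3, at 1.199, 0.14, 0.48 and 1.23 in preps 1 to 4, a mean of 0.76 ± 0.54 (SD, n = 4; adjusted p = 0.0703 by limma). All 4 preps were above 0, with preps 1 and 4 well above preps 2 and 3. For his-7 the values were 0.94, -0.11 and 0.92 in preps 1, 3 and 4, with no value in prep 2. The steadiest high member was his-16, at 0.58, 0.42, 0.70 and 0.48, or 0.55 ± 0.12 (SD, n = 4), where the preps lay close together and all above 0. Its adjusted p was 0.053 with median centring and passed under other settings, among them deposited values without centring (0.0447), mean centring (0.0388), scale normalization (0.0444) and quantile normalization (0.0422). Array weights also brought his-3 (adjusted p = 0.0254) and his-7 (0.0489) past the threshold. With the month in the array title as a random block (the month block) his-3 passed as well (0.0461).

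At the low end of the H2A class, his-61 had values of -0.19, -2.75, -1.54 and 0.37. These preps disagreed in size and sign, so its mean of -1.03 ± 1.40 (SD, n = 4), the lowest of all 55, did not pass (adjusted p = 0.197). The next were his-47, at -0.24, -0.90, -0.073 and 0.078, and his-12, at -0.25, -0.72, 0.62 and 0.014, and both had preps on either side of 0. The remaining 7 H2A means ran from -0.0025 (his-57) to 0.16 (his-65).

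H2B genes lay on both sides of the array median, from -0.64 (his-66) to 0.59 (his-41). The median of the 12 means was -0.35, with 1 gene called lower (8.33%, beside 9.87% of all features) and 0 higher (beside 4.85%). This gene was his-48, at -0.76, -0.61, -0.83 and -0.34 in preps 1 to 4, all below 0. It averaged -0.64 ± 0.22 (SD, n = 4), a 1.55-fold lower level in L2 (adjusted p = 0.0427). The call ended in each fit without 1 prep (adjusted p from 0.0721 to 0.158), and also with deposited values (0.0503), mean centring (0.0568) and centring within runs of neighbouring probes (0.0612). Much the same mean was found for his-66, at -0.26, -0.59, -0.78 and -0.93 (adjusted p = 0.0524), and for his-15, at -0.51, -0.86, -0.88 and -0.26 (0.0565), again with every prep below 0. For his-66 these are averages of 2 probes, which stood at -0.87 and 0.36 in prep 1 and at 0.38 and -1.56 in prep 2. With quantile normalization, scale normalization and the month block his-15 passed (0.04, 0.0423 and 0.0373), whereas with run centring its mean was -0.33 (0.173). With features on all 4 arrays only (0.0497), with array weights (0.0459) and with the month block (0.0377), his-66 passed.

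The high end of the class was his-41, at 0.84, 0.21, 0.60 and 0.70, or 0.59 ± 0.27 (SD, n = 4; adjusted p = 0.0623), with all preps above 0. It passed with mean centring (0.0445), array weights (0.0301), a robust fit (0.0454) and the month block (0.0416). Next were his-39, at 0.61, 0.89, -0.055 and 0.34, and his-4, at 0.61, 0.59, -0.26 and 0.30, in both of which prep 3 was the only one below 0. The gene model of his-39, placed here with H2B, is 204 bases long, against 372 for 10 of the 17 H2B genes in the newer table.

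Among H3 genes 1 was called lower (9.09%, beside 9.87% of all features) and 0 higher (beside 4.85%), and the median of the 11 means was -0.22. The called gene was his-45, at -0.44, -0.95, -0.996 and -0.42, a mean of -0.70 ± 0.31 (SD, n = 4), or 1.63-fold lower (adjusted p = 0.0428). All preps were below 0, preps 2 and 3 by more than preps 1 and 4. The call ended in each fit without 1 prep (adjusted p from 0.0788 to 0.151), and with mean centring (0.0526), run centring (0.119, mean -0.41) and a robust fit (0.0568). Preps 2 and 3 were likewise the lower ones for his-42, at -0.47, -0.92, -1.01 and -0.16 (adjusted p = 0.0716). Only with the month block did his-42 pass (0.0474). For his-2 the values of 0.12, -1.98, -0.66 and -0.22 rested largely on prep 2. At the other end, his-25 (-0.085, 0.081, 0.0062 and 0.12) and his-59 (-0.057, 0.095, 0.032 and 0.11) stayed within 0.12 of the array median in every prep, while his-32 (-0.47, 0.76, 0.090 and -0.17) varied. The values of his-25 are averages of 2 probes that disagreed, at -0.55 and 0.38 in prep 1 and at -0.34 and 0.57 in prep 4.

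H4 genes resembled the H3 genes in level, with a median of -0.21 over 13 means. Here 1 was called lower (7.69%, beside 9.87% of all features) and 0 higher (beside 4.85%). The called gene was his-26, at -0.86, -0.87, -0.54 and -0.42, a mean of -0.67 ± 0.23 (SD, n = 4), or 1.59-fold lower (adjusted p = 0.0374). Every prep was below 0, and the call was kept without prep 3 (adjusted p = 0.0472) but not without prep 1 (0.147), prep 2 (0.134) or prep 4 (0.0784). For his-5 the values of -0.55, -0.83, -0.35 and -0.63 gave -0.59 ± 0.20 (SD, n = 4) and an adjusted p of 0.0506. It was 0.0418 without prep 3 and from 0.150 to 0.169 without prep 1, 2 or 4. Under 6 of the 13 settings that kept all preps his-5 passed, among them a robust fit (0.0378) and quantile (0.0443) and scale normalization (0.0463). With run centring its mean was -0.33 (0.176). On 3 arrays only, his-56 stood at -0.32, -0.88 and -0.87 in preps 1, 3 and 4 (adjusted p = 0.0828). The highest H4 genes were his-1 (0.19, 0.20, 0.27 and -0.11), his-64 (-0.15, 0.54, 0.36 and -0.26) and his-10 (-0.20, -0.035, 0.38 and -0.16), none of them with the same sign in all preps.

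Within each core class the gene means were spread more widely than the preps of a typical gene. The SD of the means was 0.44 for H2A, 0.46 for H2B, 0.30 for H3 and 0.30 for H4, against a median SD over preps of 0.29, 0.32, 0.22 and 0.23. The H2A value owes much to his-61, whose mean of -1.03 lay far below the next lowest, -0.28, and whose own preps had an SD of 1.40. Genes of 1 class encode nearly or fully identical proteins, and the sources used here do not say how far the probes tell their transcripts apart. Members of a class are therefore not independent measurements, and a cross-hybridised signal would be shared among them.

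Of the 5 H3.3 genes 1 was called lower, and so was the only H1 gene, where 9.87% of all features were. With so few genes these counts are not read as a trait of the classes. For his-74, an H3.3 gene, the values were -0.61, -0.75, -0.94 and -1.22, averaging -0.88 ± 0.26 (SD, n = 4), a 1.84-fold lower level in L2 (adjusted p = 0.0181). All preps were at -0.61 or lower, and this was the lowest adjusted p of the 55 genes. It was 0.051, 0.0592, 0.0364 and 0.0738 without preps 1, 2, 3 and 4. The H3.3 genes his-70 (-0.21, -1.29, -0.70 and -0.46) and his-71 (-0.33, -0.98, -0.35 and -0.59) were also below 0 in every prep, with prep 2 the lowest, at adjusted p = 0.0785 and 0.0748. With run centring his-71 passed (0.0386). Both his-69 (0.051, -0.58 and -0.15 in preps 1, 3 and 4) and his-72 (0.20, -0.13, 0.048 and -0.13) had preps on either side of 0, and his-72 averaged -0.0042 with a 95% interval of -0.37 to 0.36. The medians of the 5 H3.3 genes were -0.21, -0.87, -0.58 and -0.46 in preps 1 to 4.

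Linker histone H1.1, the product of his-24, is known for a part in gene silencing in the germ line. Its log2 ratios were -1.08, -1.42, -1.18 and -0.077, so that preps 1 to 3 were well below 0 and prep 4 near it. The mean of -0.94 ± 0.59 (SD, n = 4), or 1.92-fold lower, had an adjusted p of 0.0469. The call was kept without prep 4 (0.0224) and ended without prep 1 (0.148), prep 2 (0.163) or prep 3 (0.106), and under array weights (0.0608), run centring (0.0923), mean centring (0.0548) or the uncentred deposited values (0.0502). When the null was a 1.5-fold difference, none of the calls remained, and the lowest adjusted p among the 5 genes was that of his-74 (0.584).

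Histone genes without a his- name stood lower. Of 10 measured genes for H2A.Z, H1-like linker histones and the centromeric H3 variant CENP-A, 8 fell and 0 rose, against backgrounds of 9.87% and 4.85%, with a median of -1.29. The H2A.Z gene htz-1 was at -0.83, -1.13, -1.52 and -0.85, averaging -1.08 ± 0.32 (SD, n = 4), 2.12-fold lower (adjusted p = 0.0113). The CENP-A gene hcp-3 varied least, at -1.40, -1.49, -1.42 and -1.34, or -1.41 ± 0.061 (SD, n = 4) and 2.67-fold lower (adjusted p = 0.00225). Its paralog cpar-1 was at -2.65, -2.61, -0.64 and -1.196 (adjusted p = 0.0242), with preps 1 and 2 far below preps 3 and 4.

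Among the H1-like genes hil-3 was the lowest, at -1.93, -2.45, -1.61 and -1.48, or 3.65-fold lower (adjusted p = 0.00284). The others that fell were hil-7 (-1.41 ± 0.32), hil-5 (-1.34 ± 0.64), hil-4 (-1.24 ± 0.73) and hil-6 (-0.70 ± 0.28; SD, n = 4 each). For hil-1 (-0.19 ± 0.62) and hil-8 (0.16 ± 0.51) prep 3 was the highest, at 0.71 and 0.89, and neither passed (adjusted p = 0.633 and 0.636). The calls of hil-3, hil-7 and hcp-3 were kept without any single prep. That of htz-1 ended without prep 2 (0.0515), cpar-1 without prep 1 or 2 (0.0836 and 0.0909), hil-5 without prep 2 or 4 (0.0745 and 0.0506), hil-4 without prep 1, 2 or 3 (0.0595, 0.122 and 0.0572) and hil-6 without any prep (from 0.0722 to 0.14). The count of 8 was 5, 3, 6 and 6 without preps 1 to 4, 6 with a robust fit and 3 against a fold of 1.5. Over all features 4.51%, 4.53%, 9.55% and 6.21% were called lower without preps 1 to 4, and 2.52% against a fold of 1.5. The same backgrounds hold for the lists that follow.

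**Figure D2:**
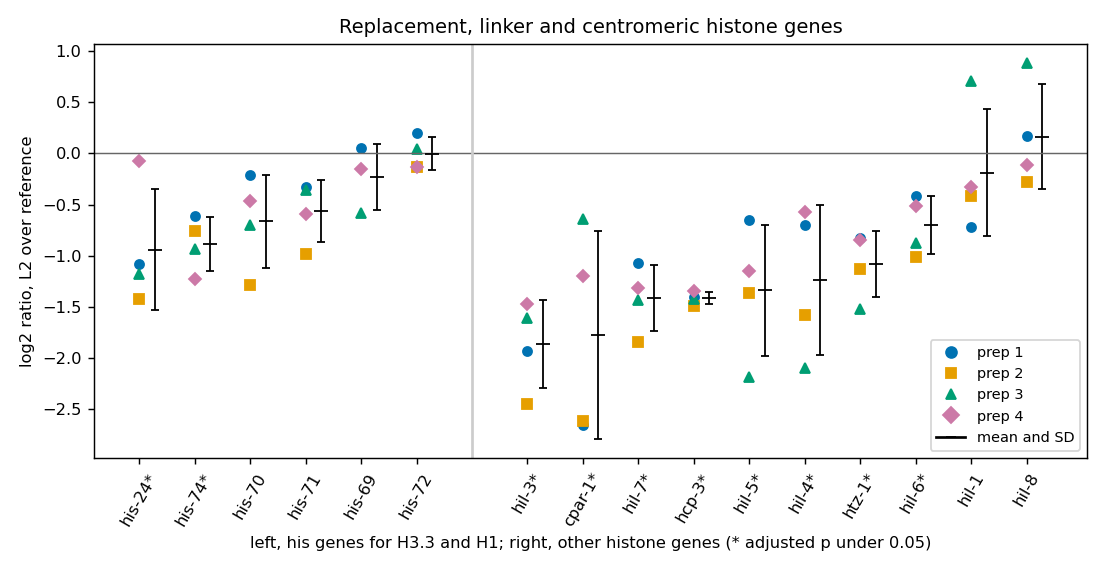
Log2 ratios of L2 over the reference for the his genes of H3.3 and H1 (left) and for 10 other histone genes (right); coloured symbols are single preps, and black marks with bars the mean and SD. On the right 8 of 10 genes passed the threshold (asterisks), led by hil-3 at -1.87, whereas on the left his-74 and his-24 passed.

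Of 15 measured genes of histone chaperones and histone message processing 8 fell and 0 rose, against backgrounds of 9.87% and 4.85%. Their median was -0.75. Among the 7 that did not pass were the chaperone genes nap-1 (0.0081) and spt-16 (-0.15), singled out after their values were seen. The lowest were nasp-2 (-2.78 ± 0.32, 6.87-fold lower), which encodes a relative of the H3-H4 chaperone NASP, and asfl-1 (-1.63 ± 0.20), an ASF1 chaperone gene. Nearest to 0 among those that fell were knl-2 (-0.75 ± 0.30), needed to load CENP-A, and nasp-1 (-0.76 ± 0.12; SD, n = 4 each). The gene of the histone stem-loop binding protein, cdl-1, singled out after its values were seen, was at -0.94, -1.96, -2.08 and -0.92, or 2.78-fold lower (adjusted p = 0.0131; 0.0582 without prep 2). The count of 8 was 4, 3, 7 and 4 without preps 1 to 4, and 2 against a fold of 1.5.

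DNA replication genes are active in the same cell cycle phase as core histone genes. Of 37 measured, 20 fell and 0 rose, against backgrounds of 9.87% and 4.85%, with a median of -1.06. The lowest were rnr-2 (-1.96 ± 0.47), a ribonucleotide reductase subunit, and cdc-7 (-1.83 ± 0.61), a kinase that fires replication origins. Nearest to 0 among those that fell were the DNA polymerase epsilon subunit gene pole-2 (-0.73 ± 0.14; SD, n = 4 each) and the cyclin E gene cye-1 (-0.93 ± 0.26, SD, n = 3). The count of 20 was 12, 10, 20 and 16 without preps 1 to 4, and 5 against a fold of 1.5. Without prep 3 a single gene was called higher, where 7.07% of all features were. Of 35 histone modifier genes 10 fell and 0 rose, against the same backgrounds of 9.87% and 4.85%, with a median of -0.53. The lowest were set-1 (-1.36 ± 0.39), which methylates H4, and air-2 (-1.16 ± 0.47), the Aurora B kinase that phosphorylates H3, and the nearest to 0 were mes-2 (-0.58 ± 0.16), the Polycomb H3 methyltransferase, and wdr-5.1 (-0.65 ± 0.19; SD, n = 4 each). The count of 10 was 2, 1, 8 and 4 without preps 1 to 4 and 0 against a fold of 1.5. Without prep 2 and against that fold, the share called was below the background of 4.53% and 2.52%. The adjusted p of mes-2 in the limma fit of all preps, 0.0498, was just under the threshold.

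In every prep the median of the replication genes was below that of the histone genes, by 0.64, 0.79, 0.70 and 0.56 in preps 1 to 4. For the other histone genes the gap was 0.64, 1.12, 1.28 and 0.88, and for the chaperones 0.41, 0.57, 0.96 and 0.34. These gaps compare lists of different genes and were not tested. A list of germ line genes moved in the same direction, with 19 of 27 lower and 0 higher, against backgrounds of 9.87% and 4.85%. The count of 19 was 14, 15, 18 and 16 without preps 1 to 4, and 12 against a fold of 1.5. Those that fell included the oocyte genes oma-2 (-4.06 ± 1.30) and spn-4 (-3.86 ± 0.60). Nearest to 0 of those that fell were syp-1 (-0.86 ± 0.29) and pgl-3 (-0.90 ± 0.34; SD, n = 4 each). The medians of this list were -1.49, -2.16, -1.66 and -0.87 in preps 1 to 4, and its means ran from -4.06 to 0.031. The part of the germ line in the values of the histone genes was not tested. The labels call both RNAs mRNA in 1 field and total RNA in another. The sources used here do not say how they were copied and labelled, which matters for messages without a poly(A) tail.

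**Figure D3:**
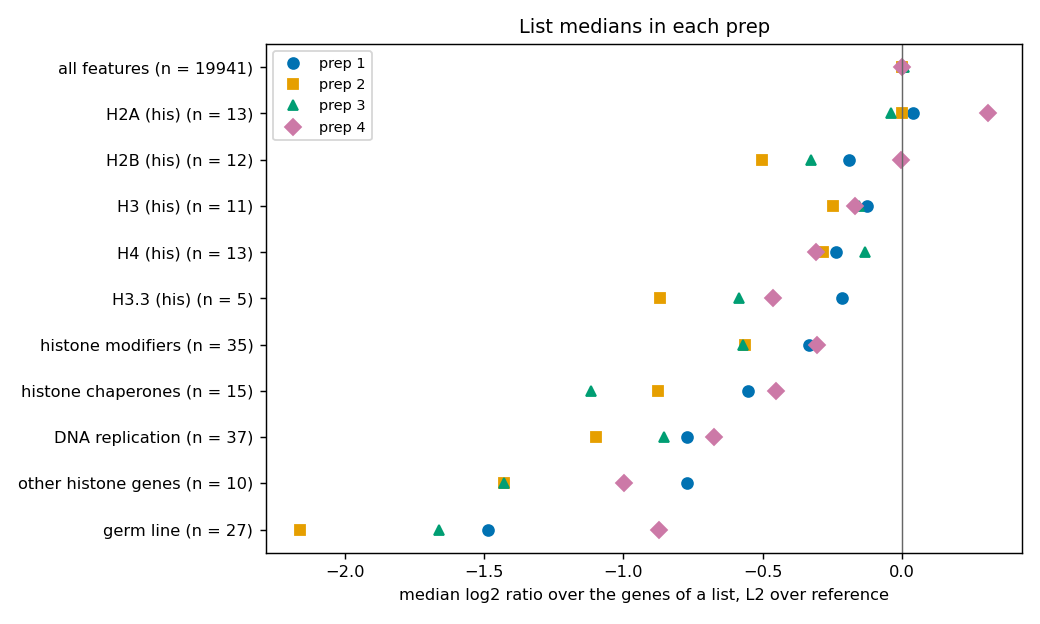
Median log2 ratio of L2 over the reference in each prep, for all features, for the his genes by class and for the other lists; each symbol is 1 prep. The core classes lie between -0.50 and 0.31, and the replication, chaperone and other histone lists lie below -0.45 in every prep.

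Neighbouring genes were compared next. Of the H2A-H2B pairs that are direct neighbours in the newer gene table, both partners were measured for 11 of 16, and of the H3-H4 pairs for 10 of 14. In 9 of 11 H2A-H2B pairs the mean of the H2A gene was the higher one, with a median difference of 0.44 on the log2 scale. The widest gap was that of his-16 over his-15, at 1.09, 1.28, 1.59 and 0.74 in preps 1 to 4, or 1.18 ± 0.35 (SD, n = 4). His-65 stood above his-66 by 0.80 ± 0.42 and his-12 above his-11 by 0.49 ± 0.73. In 5 pairs, these 3 with his-43 over his-44 and his-57 over his-58, the H2A gene was higher in all 4 preps, though by as little as 0.0042 for his-57 over his-58 in prep 4, and in 0 pairs was the H2B gene higher in all preps. The exceptions were his-61 below his-62 (-0.66 ± 1.22) and his-35 below his-41 (-0.45 ± 0.77), where the sign differed between preps. The medians of the differences were 0.41, 0.29, 0.74 and 0.41 in preps 1 to 4. With array weights, a robust fit, run centring, quantile normalization or scale normalization, the H2A gene had the higher mean in 9 of 11 pairs. It did so in 9 of 11 pairs without prep 2 and in 8 of 10 without prep 1, 3 or 4. The other settings that kept genes as features could hardly change this order and are not a check of it. They shift whole arrays, or alter only the test or which values are kept. The difference between the 2 classes was not tested, since the genes of a class share sequence.

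H3-H4 pairs showed no such order. The H3 gene had the higher mean in 6 of 10 pairs, with a median difference of 0.059, and in 5 of 10 with array weights, with a robust fit or without prep 2. In 3 pairs the H3 gene was higher in all preps, his-25 over his-26 by 0.70 ± 0.20, his-6 over his-5 by 0.51 ± 0.18 and his-59 over his-60 by 0.32 ± 0.25 (SD, n = 4 each). In 2 pairs the H4 gene was, with his-45 below his-46 (-0.49 ± 0.38) and his-2 below his-1 (-0.82 ± 0.99). Across pairs the partners' means correlated at r = 0.38 for H2A-H2B and -0.26 for H3-H4, as a description of 11 and 10 pairs measured on the same arrays.

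**Figure D4:**
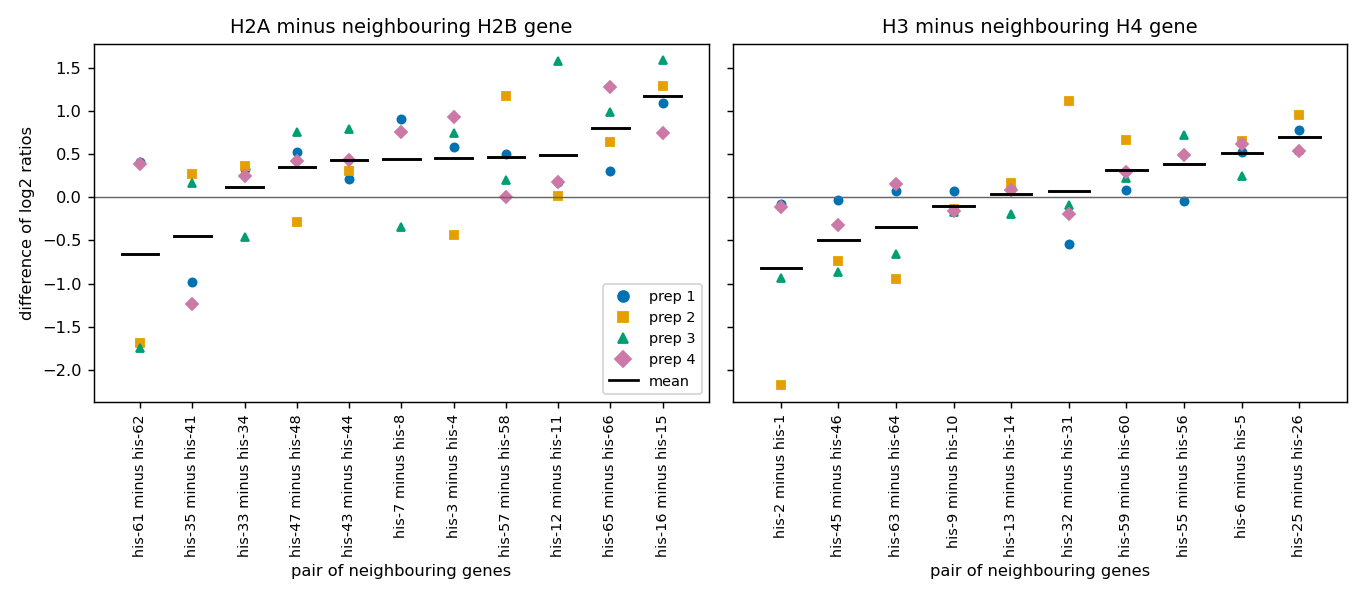
Differences between the log2 ratios of neighbouring histone genes, H2A minus H2B (left, 11 pairs) and H3 minus H4 (right, 10 pairs); coloured symbols are single preps and black bars the means. Left, 9 of 11 means are above 0; right, 6 of 10.

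By position, genes were grouped where neighbouring his genes stood no more than 5 places apart in the order of protein-coding genes. The group of 13 genes on chromosome II, all measured, had a median of -0.34 and spanned -0.67 (his-26) to 0.55 (his-16). On chromosome IV, the 8 genes from his-47 to his-57 had a median of -0.38. Of these, 2 (his-48 and his-45) were called lower, where 9.87% of all features were. Both calls ended in each fit without 1 prep and with run centring. The 5 measured genes from his-30 to his-34 lay between -0.048 and 0.071. Differences between groups were not tested. On chromosome V, the group of his-1 to his-4 had a median of 0.22 and spanned -0.69 to 0.76, and that of his-5 to his-8 with his-39 also had a median of 0.22. Both called genes of the replacement and linker classes, his-74 and his-24, stand alone.

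For 13 genes a pair of probes gave a check within the array. Their mean log2 ratios differed by a median of 0.28, beside 0.25 for 1324 genes with 2 probes. The difference was under 0.5 in 12 of 13, beside 1017 of the 1324. Whether the 2 probes of a gene differ in sequence was not assessed, so agreement between them may reflect only the precision of spots. Both probes of his-5 were low (-0.55 and -0.63) and both of his-16 were high (0.50 and 0.60). For his-41 the means were 0.38 and 0.79, the second of which passed when probes were tested singly. The exception was his-37, an H4 gene, whose probes averaged 0.44 and -0.55 and stood at 2.21 and -0.67 in prep 2. In single preps other gaps were wide as well, reaching 1.93 for his-66 and 1.34 for his-33, both in prep 2, and 0.93 for his-25 in prep 1. Across the 13 genes the probe means correlated at r = 0.54, beside 0.74 over all genes with 2 probes, whose means cover a wider range.

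**Figure D5:**
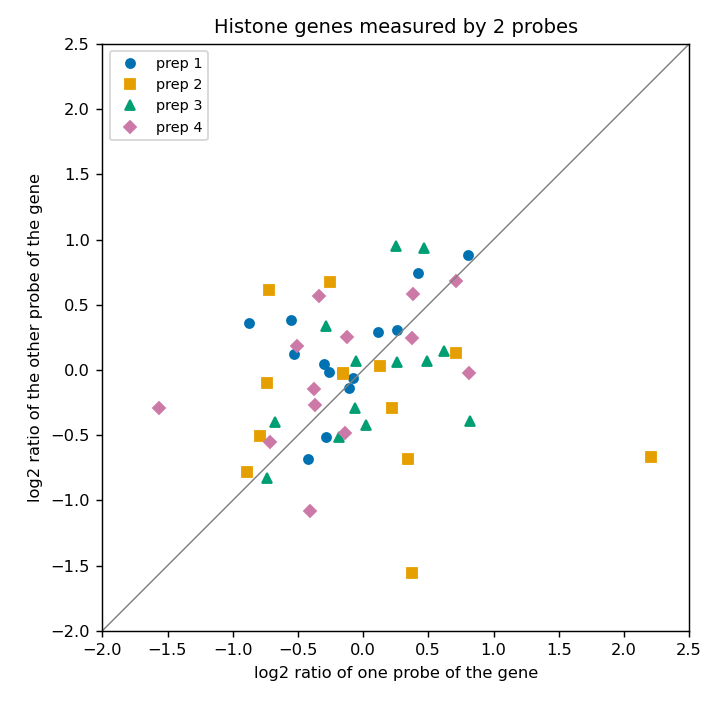
Log2 ratios of the 2 probes of 13 histone genes against each other; each symbol is 1 gene in 1 prep and the line marks equal values. The point farthest to the right is his-37 in prep 2, at 2.21 for one probe and -0.67 for the other.

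Preps ranked the histone genes only in part alike. Across the 52 to 55 genes with values, the correlation between preps was highest for preps 1 and 4 (r = 0.72) and for preps 2 and 3 (0.70), and lowest for preps 2 and 4 (0.23). Over all features preps 2 and 4 correlated at 0.67. The SD over the histone genes was 0.43, 0.70, 0.52 and 0.43 in preps 1 to 4, against 0.91, 1.01, 0.78 and 0.70 over all features, so that the histone genes filled a narrower range in each prep. These correlations share arrays and array positions and are given as a description.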

How the data were processed

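The log2 ratios are the values the authors deposited, 1 column per array. Base 2 was inferred from the values: raised to it, 100% of those giving a ratio under 0.9 came out as whole thousandths (within 0.05). How the authors corrected background, normalized and filtered spots is not stated in the labels. No intensities were used, so dim spots and dye bias could not be assessed, and precision is limited by there being 4 arrays. The deposited medians were 0.0158, 0.0580, 0.0552 and 0.0186.

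Probes were named from the platform annotation; of 16450 with 1 gene, 16360 matched a newer gene table (WBcel235) with 0 changed symbols. That table gave only names, order on the chromosomes and gene lengths. Histone classes were assigned by hand to the standard gene names and were not checked against protein sequences or descriptions. Each array was centred on its median, probes of a gene were averaged, and 19941 features on at least 3 arrays were tested against 0 by the two-sided moderated test of limma 3.58.1 under R 4.3.3 (lmFit, eBayes), Benjamini-Hochberg adjusted, at an adjusted p of 0.05. The reference enters as 1 control sample without its own spread, and p-values measure the spread between preps, which may be technical. In fits without 1 prep, features needed all 3 remaining arrays. The 95% intervals come from this fit. Alternatives changed the centring, normalization, array filter, weights, test or block, 1 at a time. The fit was tested on simulated data.

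Members, lists and rules were chosen with earlier results of these data known. Values per prep are given for members past the threshold in any fit of 4 or 3 preps, for all H3.3 and H1 genes, and for the 3 highest and 3 lowest of each core class; of each other list, the 2 most and 2 least extreme called genes are named, and of the other histone genes all. Figures were made with Python 3.11.15 and matplotlib 3.10.9.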

Additional observations from a re-analysis of the deposited data

Results flagged for a closer look

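For his-60, an H4 gene, prep 2 lay apart from the rest: its log2 ratio was -0.57 in prep 2, whereas preps 1, 3 and 4 ranged from -0.19 to -0.14, a gap of 0.893 of the whole range. It was the only such gene among the 52 histone genes with a value in all 4 preps, and chance alone marks about 1 gene in 20.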

How the results depend on the processing

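The median over the histone genes stayed below 0 under all 13 alternatives and in the 4 fits without a prep, between -0.18 and -0.048. The count of genes called lower, 5 (9.09%, beside 9.87% of all features), was 3 with deposited values (5.45%, beside 9.22% of all features), 2 with mean centring (3.64%, beside 8.72%), 3 with centring within runs of neighbouring probes (5.45%, beside 9.94%), 9 with the month in the array title as a random block (16.4%, beside 12.1%; estimated correlation -0.133) and 0 against a fold of 1.5 (beside 2.52%). Without 1 prep it ranged from 0 to 3. The count of genes called higher, 0 (beside 4.85% of all features), was 4 with array weights (7.27%, beside 8.42%), 1 with deposited values (1.82%, beside 5.54%), 2 with mean centring (3.64%, beside 6.19%), 3 with the month block (5.45%, beside 6.9%), 1 with quantile normalization (1.82%, beside 5.67%), 1 with scale normalization (1.82%, beside 5.62%), 2 with a robust fit (3.64%, beside 6.37%) and 1 of 68 with single probes (1.47%, beside 4.75%). It was 0 in each fit without 1 prep. Other alternatives (features on all 4 or on at least 2 arrays, ratios above 6 in size left out) kept both counts within 1.5 times. Over 923 gene values under the alternatives, 32 lost a call, 29 gained one and 0 called values changed sign; 39 uncalled values did, in 15 genes with means no farther than 0.14 from 0. The causes of these changes were not tested, except that fits without a prep have fewer samples. No paired analysis was possible because all preps belong to 1 group.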
